A study of Mus musculus with 2 samples.

Results

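The genes described here encode the translation initiation factors of the mouse, the proteins that load a ribosome onto an mRNA. They were chosen by symbol: the transcript accession of each probe was matched to a RefSeq mouse gene, and genes whose symbols begin with Eif1 to Eif6 were taken, leaving out the eIF2 kinase genes Eif2ak1 to Eif2ak4 and Eif4ebp1. This gave 51 genes of 23462 named on the array, all 51 of the protein-coding RefSeq symbols that meet the rule. The study cultured naive CD8 T cells from the spleens of C57BL/6 mice in 2 arms. In the prednisolone arm, cells were stimulated for 2 days with immobilised antibodies to T cell receptor β (3 µg/ml) and CD28 (1 µg/ml) and with interleukin-2 (10 ng/ml) in the presence of 1 µM prednisolone, a synthetic glucocorticoid. In the vehicle arm, cells had the same antibodies and interleukin-2 with vehicle in place of the drug. Both arms then spent 3 more days in interleukin-2 on a new plate, and RNA was taken on day 5. The protocol names the drug for the stimulation only, and the labels do not say how many mice or cultures lie behind each array.

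Each arm was measured on 1 Agilent array with 1 dye, so there are 2 arrays, no replicates, no test between the arms and no p-value. A level below is the signal of a gene divided by its array's 75th percentile, so a level of 1 equals that percentile, and a difference is log2 prednisolone minus log2 vehicle. The error after ± is the scanner software's own for the 2 spots, averaged over a gene's probes as if they were independent. It covers neither labelling nor the spread between cultures. Levels of different genes come from different probes and are not set against each other. On each array 53.5% of spots were well above background, and none was saturated. By the brightest spot of each gene, spots with an outlier flag included, the 8 T cell markers looked up were above background on both arrays. Their levels, such as those of Cd8a, Cd3e and Cd2, summed to 474 with prednisolone and 602 with vehicle. Apart from Cd8a and Cd8b1, these genes are shared with CD4 T cells, so the sum does not measure the share of CD8 T cells. Cd8a alone, from its usable probes, was at 9.22 with prednisolone and 9.28 with vehicle. The summed levels of the markers of other cells were 4.24 and 2.71 for B cells (Ms4a1 and Cd79a not above background), 10.3 and 11.4 for myeloid cells (Lyz2 and Adgre1 not above background), 2.61 and 3.35 for CD4 T cells, 0.0673 and 0.0648 for NK cells (Ncr1 not above background) and 4.71 and 0.623 for erythroid cells, prednisolone before vehicle in each pair. Such sums can hide single markers. Of the 8 T cell markers, Cd3d was 1.53-fold lower and Cd28 1.55-fold lower, while Cd8a and Cd2 lay at -0.01 and 0.10. The myeloid marker Cd68 was at 0.562 with prednisolone and 2.61 with vehicle, 4.65-fold lower. The myeloid markers Csf1r and Itgam were not lower, at 0.23 and 0.02. The erythroid marker Hba-a1 was at 1.85 with prednisolone and 0.118 with vehicle, 15.7-fold higher. Hbb-bt, also erythroid, was at 0.661 with prednisolone and 0.361 with vehicle, 1.83-fold higher. Cd4 was at 1.70 with prednisolone and 1.60 with vehicle, and the B cell marker Pax5 at 0.0341 and 0.0362. The other CD4 and B cell markers above background, Zbtb7b and Cd79b, had only spots with an outlier flag. The part of cells other than CD8 T cells in the results below was not tested. In bulk RNA, fewer cells of a type and less RNA per cell cannot be told apart.

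Initiation begins when eIF2, carrying GTP and the initiator tRNA, joins the small ribosomal subunit together with eIF1, eIF1A, eIF3 and eIF5. The eIF4F complex, made of the cap-binding protein eIF4E, the scaffold eIF4G and the RNA helicase eIF4A, brings the mRNA, and the complex scans to the start codon. eIF5B then promotes the joining of the large subunit, eIF6 keeps that subunit apart until it is mature, and eIF2B recharges eIF2 with GTP. T cells that leave rest on antigen receptor stimulation are known to raise protein synthesis, and mTOR signalling acts on eIF4E through the 4E-binding proteins.

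Of the 51 genes, 47 were measured on both arrays. They were mostly somewhat higher with prednisolone, with a median difference of 0.26, against 0.0015 over all 11970 measured genes. At least 1.5-fold higher were 11 of the 47 (23.4%), against 14.5% of all measured genes, and none was 1.5-fold lower, against 15.2% of all. Eif5b passed 2-fold higher as the single member (2.13%, against 5.76% of all genes) and no member was 2-fold lower (6.62% of all genes). Above 0 were 35 of the 47 (74.5%), against 50.1% of all genes. With the arrays scaled on spike-in controls 43 members lay above 0, against 68.8% of all genes. The differences of the members ran from -0.51 (Eif2a) to 1.29 (Eif5b), and their SD across genes was 0.40, against 0.73 over all measured genes. Of the 47 members, 43 were brighter than the median gene, so the set of all genes is not matched to them in brightness. With dim probes left out (signal of at least 100), 13.9% of all genes were at least 1.5-fold higher and 12.6% lower. Of 46 members, 10 were then higher and 0 lower. Whether brightness accounts for the members' narrower spread was not tested. The difference was higher than the software's error for 26 members, lower by more than the error for 6, and within it for 15. Among the 6 is Eif4e, whose probes disagreed in sign. Spike-in scaling adds 0.24 to every difference, for all genes alike, so the members' median stood 0.26 above the median of all genes on both scales.

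**Figure D1:**
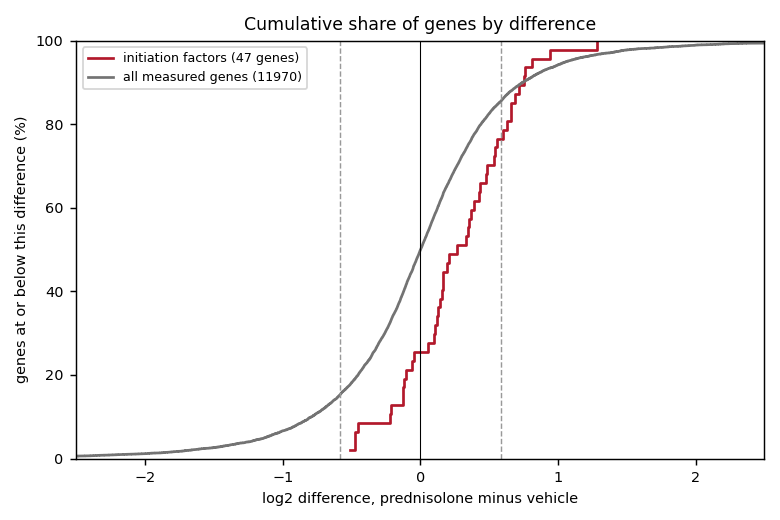
Cumulative percentage of genes (vertical axis) at or below each log2 difference, prednisolone minus vehicle (horizontal axis), for the 47 measured initiation factor genes (red) and all 11970 measured genes (grey). Dashed lines mark 1.5-fold. The red curve starts at -0.51, lies right of the grey curve between the dashed lines and ends at 1.29.

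The other 4 genes have no value on the main scale. Eif3c, Eif3j1 and Eif4e3 had only a spot that carried an outlier flag. With such spots kept, Eif3c, a core eIF3 subunit, had levels of 75.8 with prednisolone and 78.7 with vehicle (difference -0.05 ± 0.20). Eif3j1, a loosely bound eIF3 subunit, had 4.97 with prednisolone and 3.07 with vehicle (0.69 ± 0.20). Eif4e3, a relative of the cap-binding protein, had 1.22 with prednisolone and 1.60 with vehicle (-0.39 ± 0.20). Eif4e1b, a germ-line relative of eIF4E, had 5 probes, 3 of them above background on neither array. Of the remaining pair, 1 was above background with prednisolone only (signal of 22.0 with prednisolone, 13.6 with vehicle) and the other with vehicle only (12.9 with prednisolone, 34.5 with vehicle), so its probes point opposite ways and no fold is given.

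The group of eIF1 and eIF1A, factors that set start codon choice, held 5 genes that ranged from -0.12 to 0.69. Eif1ad was placed in it by its symbol. Eif1a, which encodes an eIF1A, had a level of 8.57 with prednisolone and 5.31 with vehicle, 1.61-fold higher (0.69 ± 0.20). Eif1ad, which encodes a protein with an eIF1A-like domain, had 20.5 with prednisolone and 13.0 with vehicle, 1.58-fold higher (0.66 ± 0.20). Eif1ax, a second eIF1A gene, on chromosome X, lay closer to 0, with 30.3 with prednisolone and 27.0 with vehicle (0.17 ± 0.20). Eif1b was at 12.3 with prednisolone and 9.52 with vehicle (0.37 ± 0.20). Eif1, its close relative, was at 31.8 with prednisolone and 34.4 with vehicle, a difference of -0.12 ± 0.20 that becomes positive under spike-in scaling. The median of the 5 was 0.37, and 2 of 5 were at least 1.5-fold higher, against 14.5% of all measured genes.

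The subunits of eIF2 went both ways. Eif2s1, which encodes eIF2α, the subunit that stress kinases phosphorylate, was at 22.0 with prednisolone and 15.7 with vehicle (0.49 ± 0.20). Eif2s2, which encodes eIF2β, was at 40.4 with prednisolone and 56.1 with vehicle (-0.48 ± 0.20). The genes of the GTP-binding subunit eIF2γ were also slightly lower with prednisolone: Eif2s3x, on chromosome X, had 3.60 with prednisolone and 4.20 with vehicle (-0.22 ± 0.20), and Eif2s3y, on chromosome Y, had 1.35 with prednisolone and 1.57 with vehicle (-0.21 ± 0.15). The eIF2γ pair differed by -0.22 and -0.21, so its members lay close to each other, and both move to just above 0 under spike-in scaling. The median of the 4 eIF2 genes was -0.22, or 0.02 under spike-in scaling. No gene of the complex was 1.5-fold apart, and α and β differed in opposite directions by more than the software's error of each.

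The genes of the nucleotide exchange factor eIF2B had a median of 0.56, and 1 lay within the error of 0. At least 1.5-fold higher were 2 of 5, against 14.5% of all measured genes. Eif2b3, which encodes the γ subunit, had a level of 1.78 with prednisolone and 1.06 with vehicle, 1.69-fold higher (0.76 ± 0.12), and its 3 probes lay between 0.63 and 0.86. Eif2b5, which encodes the catalytic ε subunit, was at 6.97 with prednisolone and 4.58 with vehicle, 1.52-fold higher (0.60 ± 0.20), and at 0.55 fell short of 1.5-fold with no scaling or quantile normalization. Eif2b1 (α subunit) was just under the 1.5-fold line, at 6.35 with prednisolone and 4.32 with vehicle (0.56 ± 0.20). Eif2b4 (δ subunit) was 0.21 ± 0.15 from 2 probes. Eif2b2 (β subunit), at 26.2 with prednisolone and 25.2 with vehicle, lay within the error of 0 (0.05 ± 0.20). The alternative initiator tRNA carriers split: Eif2a was the lowest of all members, at 1.51 with prednisolone and 2.15 with vehicle (1.43-fold lower, -0.51 ± 0.20), and Eif2d was 0.34 ± 0.12, with all 3 of its probes above 0.

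The scaffold complex eIF3 was nearly level apart from a few subunits, with a median of 0.13 over 12 measured genes of 14. At least 1.5-fold higher were 2 of the 12 (16.7%), close to the 14.5% of all measured genes. Eif3b, which encodes an RNA-binding scaffold subunit, was at 52.5 with prednisolone and 27.3 with vehicle, 1.93-fold higher (0.95 ± 0.20). Eif3g, which encodes another RNA-binding subunit, was at 93.2 with prednisolone and 59.1 with vehicle, 1.58-fold higher (0.66 ± 0.20). Eif3i, their partner in the same module, was at 39.2 with prednisolone and 35.9 with vehicle (0.12 ± 0.20). The b and g subunits thus stood away from the i subunit by more than the software's error, in 1 probe each. Eif3d, which can bind the cap of some mRNAs, was at 85.3 with prednisolone and 79.1 with vehicle (0.11 ± 0.20), and Eif3j2 was 0.35 ± 0.20.

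The 8 eIF3 subunits with PCI or MPN domains form the octamer at the core of the mammalian complex, and 7 of them were measured. Their median was -0.06, with 3 above and 4 below 0 on the main scale, where 50.1% of all measured genes were above 0. Under spike-in scaling, which raises every difference alike, all 7 were above 0, against 68.8% of all genes. Eif3l was the highest of them, at 83.1 with prednisolone and 61.8 with vehicle (0.43 ± 0.20). Eif3a and Eif3e were at 0.14 ± 0.20 and 0.13 ± 0.20. Eif3f (-0.13 ± 0.20), Eif3k (-0.06 ± 0.20) and Eif3m (-0.10 ± 0.20) lay just below 0. Eif3h gives a view of the spread between spots, since 1 of its probes was printed 10 times. Its spots read 61656 to 72186 signal units with prednisolone and 70319 to 81442 with vehicle before scaling, and after scaling the 10 spot differences ran from -0.19 to -0.10 (SD 0.025). A further Eif3h probe gave -0.12, and the gene's value was -0.13 ± 0.14. The spread of these spot differences was smaller than the software's error of 0.20 for that probe. Each spot difference pairs the same position on both arrays, so variation that a position shares between them drops out.

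**Figure D2:**
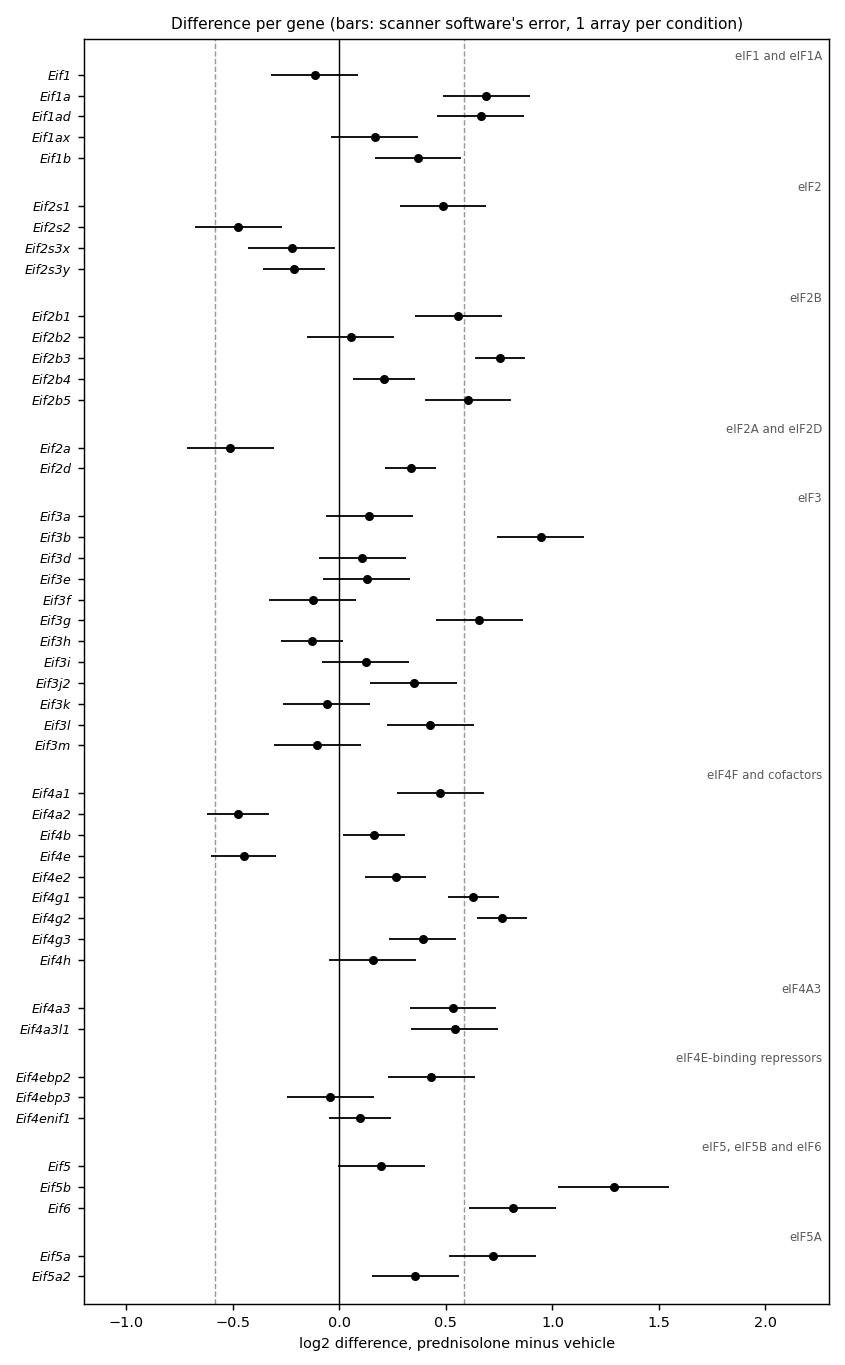
Log2 difference (horizontal axis), prednisolone minus vehicle, of the 47 measured genes, in rows grouped by complex. Bars are the scanner software's error for 1 array per condition and dashed lines mark 1.5-fold. Of the 5 eIF2B genes, Eif2b2 lies near 0 and the others to its right, most eIF3 genes lie near 0 apart from Eif3b and Eif3g, and no gene reaches the dashed line on the left.

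Within eIF4F the 3 scaffold genes were all above 0, as were 50.1% of all measured genes, while the helicase genes differed in sign. Eif4g1, the main eIF4G scaffold, had levels of 3.12 with prednisolone and 2.02 with vehicle, 1.55-fold higher (0.63 ± 0.12), and fell short of 1.5-fold with no scaling (0.58) and with normexp, another background correction (0.56). Its probes differed in size, at 0.87, 0.70 and 0.31 from the brightest to the dimmest, and the brightest alone gave 27.4 with prednisolone and 15.0 with vehicle. Eif4g2 encodes DAP5, a scaffold that lacks the eIF4E-binding site. It was at 2.66 with prednisolone and 1.57 with vehicle, 1.70-fold higher (0.76 ± 0.12), with 3 probes between 0.71 and 0.85. Eif4g3 was at 0.917 with prednisolone and 0.700 with vehicle (0.39 ± 0.16).

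The helicase paralogs differed in opposite directions. Eif4a1, the main eIF4A of dividing cells, was at 86.1 with prednisolone and 62.0 with vehicle, 1.39-fold higher (0.47 ± 0.20). Eif4a2, a close paralog that is better known in resting and differentiated cells, was at 4.33 with prednisolone and 6.03 with vehicle, 1.39-fold lower (-0.48 ± 0.14). Its probes gave -0.49 and -0.46, so the lower value did not rest on 1 of them. Neither gene reached 1.5-fold, and under spike-in scaling Eif4a2 was at -0.24. The helicase cofactors lay close to 0, with Eif4b at 0.16 ± 0.14 and Eif4h at 0.16 ± 0.20. Eif4a3 belongs to the exon junction complex and not to eIF4F. It was at 6.16 with prednisolone and 4.26 with vehicle (0.53 ± 0.20), and its relative Eif4a3l1 was at 19.1 with prednisolone and 13.1 with vehicle (0.54 ± 0.20).

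The cap-binding gene Eif4e had no settled direction, because its 2 probes, annotated to different transcripts, disagreed. The brighter probe was at 6.22 with prednisolone and 4.65 with vehicle (0.42 ± 0.20), and the dimmer one at 0.103 with prednisolone and 0.257 with vehicle (-1.32 ± 0.23). Their mean, -0.45, therefore describes neither. Eif4e2, a cap-binding relative linked to repression of translation, was at 8.35 with prednisolone and 6.96 with vehicle (0.26 ± 0.14). The repressors that bind eIF4E lay near 0 or a little above. Eif4ebp2, a 4E-binding protein gene, was at 9.67 with prednisolone and 7.17 with vehicle (0.43 ± 0.20), and Eif4ebp3 was at 3.14 with prednisolone and 3.23 with vehicle (-0.04 ± 0.20). Eif4enif1, which encodes the eIF4E transporter 4E-T, had probes at 0.48 and -0.29, with a mean of 0.10. The excluded Eif4ebp1, the best studied 4E-binding protein gene, was at 13.5 with prednisolone and 28.6 with vehicle, 2.12-fold lower (-1.08 ± 0.20).

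**Figure D3:**
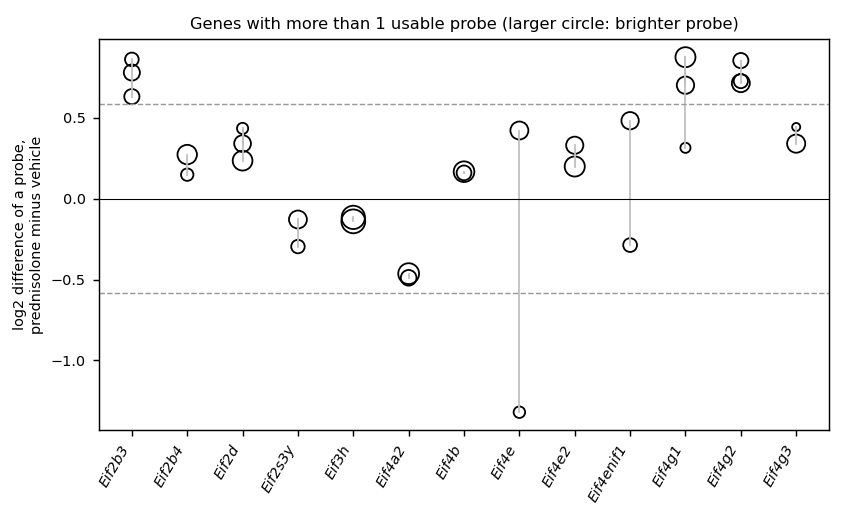
Log2 difference, prednisolone minus vehicle (vertical axis), of each usable probe of the 13 genes with more than 1, with larger circles for brighter probes and dashed lines at 1.5-fold. The probes of 10 genes lie within 0.5 of each other, and those of Eif4e and Eif4enif1 lie on both sides of 0.

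Promoters of 3 members at least 1.5-fold higher are shown next, in order of difference among those with a motif match, followed by those of the eIF4F genes Eif4g1, Eif4e and Eif4a1, which were added after the values were seen because they hold an E-box. Sequences are from RefSeq (GRCm38.p6), from 250 bases before to 50 after an annotated start, 5′ to 3′ on the gene's strand. Capitals mark CACGTG, the E-box that Myc and its partner Max can bind, and CCGGAAG, a core bound by ETS factors, searched on both strands; no matches overlap.
Eif5a promoter, chr11:69920581-69920880, minus strand: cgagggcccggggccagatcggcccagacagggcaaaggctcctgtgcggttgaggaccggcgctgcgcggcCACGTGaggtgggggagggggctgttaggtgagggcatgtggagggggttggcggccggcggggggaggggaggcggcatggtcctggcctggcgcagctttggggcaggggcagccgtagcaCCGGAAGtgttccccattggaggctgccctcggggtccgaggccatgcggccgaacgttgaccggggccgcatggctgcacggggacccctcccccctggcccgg
Eif1ad promoter, chr19:5366563-5366862, plus strand: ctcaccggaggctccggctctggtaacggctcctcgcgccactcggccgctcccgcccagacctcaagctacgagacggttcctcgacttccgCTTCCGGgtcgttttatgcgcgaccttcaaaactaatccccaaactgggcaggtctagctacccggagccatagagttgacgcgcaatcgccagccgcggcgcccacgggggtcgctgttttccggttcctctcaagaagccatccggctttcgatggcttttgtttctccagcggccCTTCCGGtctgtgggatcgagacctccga
Eif3g promoter, chr9:20898541-20898840, minus strand: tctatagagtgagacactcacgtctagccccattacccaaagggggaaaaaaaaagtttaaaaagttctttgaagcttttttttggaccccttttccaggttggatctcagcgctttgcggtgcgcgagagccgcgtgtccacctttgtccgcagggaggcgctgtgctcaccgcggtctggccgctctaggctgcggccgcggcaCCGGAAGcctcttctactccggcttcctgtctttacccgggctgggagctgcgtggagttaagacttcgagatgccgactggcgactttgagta
Eif4g1 promoter, chr16:20672477-20672776, plus strand: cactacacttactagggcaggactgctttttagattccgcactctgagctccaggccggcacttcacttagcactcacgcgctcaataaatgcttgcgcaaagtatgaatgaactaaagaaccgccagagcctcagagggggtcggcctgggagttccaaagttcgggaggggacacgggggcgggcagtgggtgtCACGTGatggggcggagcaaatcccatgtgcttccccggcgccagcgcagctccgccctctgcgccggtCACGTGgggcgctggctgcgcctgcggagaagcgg
Eif4e promoter, chr3:138527018-138527317, plus strand: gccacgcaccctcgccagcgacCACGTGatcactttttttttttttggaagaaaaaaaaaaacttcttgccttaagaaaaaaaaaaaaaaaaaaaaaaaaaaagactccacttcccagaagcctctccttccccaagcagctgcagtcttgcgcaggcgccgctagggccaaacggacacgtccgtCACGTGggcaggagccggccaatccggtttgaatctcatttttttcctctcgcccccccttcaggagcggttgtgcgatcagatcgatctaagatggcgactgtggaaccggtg
Eif4a1 promoter, chr11:69672374-69672673, minus strand: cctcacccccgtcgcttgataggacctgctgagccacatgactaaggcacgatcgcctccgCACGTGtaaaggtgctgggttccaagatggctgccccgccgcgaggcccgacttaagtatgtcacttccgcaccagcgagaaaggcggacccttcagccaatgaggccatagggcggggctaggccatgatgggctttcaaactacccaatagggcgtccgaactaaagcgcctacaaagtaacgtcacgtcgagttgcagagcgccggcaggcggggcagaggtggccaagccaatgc

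Promoter windows were found for 40 of the 51 members, 52 windows in all, since some genes have several annotated starts. An E-box was in 12 of the 52 windows (23.1%), against 7.15% of 32851 windows of all genes. The ETS core was in 18 of the 52 (34.6%), against 8.86% of all windows. A full palindromic glucocorticoid response element, AGAACA and TGTTCT with 3 bases of any kind between them, was in none of the members' windows and in 0.00913% of all. The windows of all genes include many kinds of gene, so these shares only describe the letters. The 10 measured genes with an E-box had a median difference of 0.26, and the 28 without had 0.24. Eif4e is among the 10 and enters as the mean of probes that disagreed in sign. For the ETS core the medians were 0.31 for 14 genes with it and 0.18 for 24 without. Above 0 were 13 of 14 and 15 of 24, against 50.1% of all measured genes. At least 1.5-fold higher (14.5% of all genes) were 3 of 14 with the ETS core and 4 of 24 without. For the E-box these were 2 of 10 and 5 of 28. A gene counts as having a motif if any of its windows holds it: Eif5a has an E-box in 3 of 6 windows and the ETS core in 1. Whether a motif bears on the differences was not tested. The Eif4a1 window holds an E-box and that of Eif4a2 holds neither motif, and the genes furthest apart between the arms, Eif5b and Eif3b, have no match in theirs.

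Among the late-acting factors, Eif5b and Eif6 were at least 1.5-fold higher, as was Eif5a. Of all measured genes, 14.5% were as much higher. Eif5b, the GTPase of subunit joining, was at 0.178 with prednisolone and 0.0731 with vehicle, 2.44-fold higher (1.29 ± 0.26). It rests on a single dim probe, with 69.0 signal units with prednisolone and 29.3 with vehicle before scaling, and normexp gave 0.44. Eif6, which keeps ribosomal subunits apart and takes part in making the large subunit, was at 16.9 with prednisolone and 9.61 with vehicle, 1.76-fold higher (0.81 ± 0.20). Eif5, the GTPase-activating protein of eIF2, was at 11.8 with prednisolone and 10.3 with vehicle (0.20 ± 0.20). Eif5a encodes the hypusine-containing factor that helps ribosomes through difficult stretches. It was at 46.7 with prednisolone and 28.4 with vehicle, 1.65-fold higher (0.72 ± 0.20). A brighter Eif5a probe whose spot carried an outlier flag gave 0.29, and both together 0.51, under 1.5-fold. Its paralog Eif5a2 was at 0.643 with prednisolone and 0.502 with vehicle (0.36 ± 0.21). Both enzymes that make hypusine on eIF5A were also above 0, Dhps at 0.38 ± 0.14 and Dohh at 0.38 ± 0.20.

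**Figure D4:**
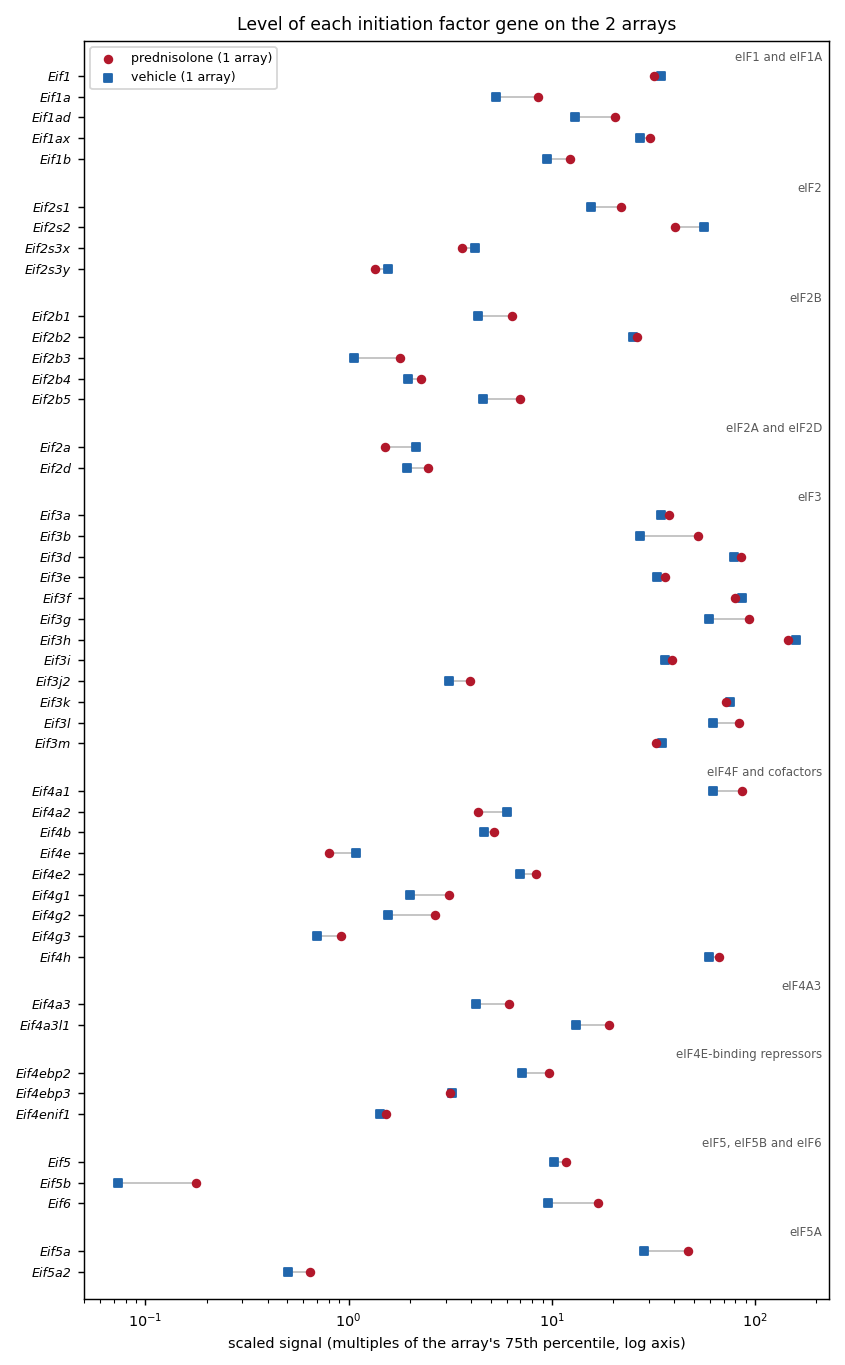
Level of each measured gene with prednisolone (red circles) and vehicle (blue squares), 1 array each, in multiples of the array's 75th percentile on a log axis, grouped by complex. Distances within a row show the difference; rows come from different probes and are not comparable. Eif5b has the widest gap, at 0.178 with prednisolone and 0.0731 with vehicle.

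The other translation genes looked up, from short lists of general knowledge, did not follow 1 direction. The 5 elongation factor genes measured, Eef1a1, Eef1b2, Eef1d, Eef1g and Eef2, lay between -0.16 and 0.03 with a median of -0.01, and none was 1.5-fold apart. Eef2, which moves the ribosome along the mRNA, was at 41.8 with prednisolone and 45.9 with vehicle (-0.13 ± 0.12). Of 3 termination and recycling genes measured, 2 were at least 1.5-fold higher, against 14.5% of all genes. Abce1, which splits ribosomes after termination and links recycling to new initiation, was at 9.58 with prednisolone and 4.43 with vehicle, 2.16-fold higher (1.11 ± 0.20). Etf1, the release factor eRF1, was at 34.5 with prednisolone and 21.0 with vehicle (0.72 ± 0.20), and Gspt1, its partner eRF3, was 0.58 ± 0.14.

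The 14 kinases, phosphatase subunits and repressors that act on initiation or elongation had a median of 0.05. A single gene was higher by 1.5-fold or more (7.14%, against 14.5% of all genes). Lower by as much were 3 genes (21.4%, against 15.2% of all genes), 1 of them Eif4ebp1, given above. Pdcd4, an inhibitor of eIF4A, was at 27.2 with prednisolone and 14.8 with vehicle, 1.85-fold higher (0.88 ± 0.14). Eif2ak2, the eIF2 kinase PKR, which interferon induces, was at 0.912 with prednisolone and 1.73 with vehicle, 1.90-fold lower (-0.93 ± 0.20). Ppp1r15a, the stress-induced GADD34 that directs eIF2α dephosphorylation, was at 2.27 with prednisolone and 3.89 with vehicle, 1.71-fold lower (-0.78 ± 0.20). The other eIF2 kinase genes were at 0.43 (Eif2ak1, HRI), 0.42 (Eif2ak3, PERK) and -0.27 (Eif2ak4, GCN2), none 1.5-fold apart. Among 5 poly(A)-binding proteins and partners measured, 1 was at least 1.5-fold higher (20%, against 14.5% of all genes). This was Pabpc4, at 5.67 with prednisolone and 3.11 with vehicle, 1.83-fold higher (0.87 ± 0.20). Pabpc1 was 0.10 ± 0.20. Paip2, which holds poly(A)-binding protein off the mRNA, was -0.45 ± 0.20. Of 5 accessory factors measured, 1 was at least 1.5-fold higher (20%, against 14.5% of all genes). It was Dhx29, a helicase for structured leaders, at 1.86-fold higher (0.90 ± 0.21). The mitochondrial initiation factor genes Mtif2 and Mtif3 were at -0.17 ± 0.11 and -0.09 ± 0.21.

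Several members have near relatives: Eif1a and Eif1ax, Eif1 and Eif1b, Eif2s3x and Eif2s3y, Eif3j1 and Eif3j2, Eif4a3 and Eif4a3l1. Whether a probe of 1 also binds the transcript of its relative was not tested, so values of these pairs are uncertain as values of single genes. Of the measured genes, 13 had more than 1 usable probe, the median range of their probes was 0.14, and 1 gene, Eif4e, had probes more than 1 apart.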

How the data were processed

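Per the file headers, the deposited scanner files hold linear intensity values per spot from Agilent Feature Extraction 12.0.3.1, background-subtracted and detrended within each array. The other deposited table gives intensity as the same signal times 1 constant per array (0.858 for prednisolone, 0.792 for vehicle), for reasons not given in the sources used here. Outlier-flagged (spot or background), control and dim spots were left out, except that sums of cell markers use each marker's brightest spot, flagged or not. The processed signal was divided by the array's 75th percentile (386.9 for prednisolone, 400.4 for vehicle), put on the log2 scale and averaged over the probes of a gene that were well above background on both arrays. RefSeq accessions named 33767 probes and left 22838 unnamed. Counts use at least 1.5-fold or 2-fold, without a test. The number of arrays limits the precision. Members measured on both arrays may be named, and of other lists those at least 1.5-fold apart with up to 3 others each. The members, groups and lists were chosen with earlier results of these data known. Some cell markers are not reported here. The steps were tested on simulated data. Python 3.11.15, R 4.3.3 and limma 3.58.1 (normexp, offset 50) were used.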

Additional observations from a re-analysis of the deposited data

How the results depend on the processing

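No paired analysis was possible because each group has 1 array. Results were recomputed under 10 alternatives. Spike-in scaling (8 probes) gave a median of 0.24 over all genes, against 0.0015 on the main scale, and raised the share of all genes at least 1.5-fold higher to 25% (9.3% lower) and at least 2-fold higher to 9.62%. It gave a members' median of 0.50, 22 members past 1.5-fold and 4 past 2-fold (all higher), and medians of 0.61 (eIF1 and eIF1A), 0.020 (eIF2), 0.80 (eIF2B), 0.36 (eIF3), 0.50 (eIF4F and cofactors), 0.33 (eIF4E-binding repressors) and 1.05 (eIF5, eIF5B and eIF6). With normexp, which was run on median signals since no mean signal column was used here and so was chosen after seeing the data, and with the stricter filter (signal of at least 100), 0 members were at least 2-fold higher, and the median of eIF5, eIF5B and eIF6 was 0.44 with normexp and 0.505 with the stricter filter, which leaves out Eif5b. With the brightest probe per gene the repressors had a median of 0.43 and Eif4e was 0.42. Between 9 and 11 members were at least 1.5-fold higher under the alternatives other than spike-in scaling; Eif2b5 and Eif4g1 dropped out with no scaling. No alternative gave a member 1.5-fold lower. No member at least 1.5-fold apart changed sign.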

Other observations

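Spots with an outlier flag gave second values for 4 members that already had one. A second Eif6 probe was 0.83 (24.1 with prednisolone, 13.6 with vehicle), close to the 0.81 of the usable probe. A second Eif1 probe was -0.11 (80.3 with prednisolone, 86.9 with vehicle), against -0.12. A dim second Eif2s3x probe was 0.26 (0.301 with prednisolone, 0.251 with vehicle), opposite in sign to the usable probe at -0.22. The bright Eif5a probe was 0.29 (279 with prednisolone, 228 with vehicle), against 0.72.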
